A study of Mus musculus with 18 samples.

Results

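Transcripts of 10 genes of the vessel wall were measured in the kidney cortex of mice challenged with antibodies against the glomerular basement membrane (GBM). The genes were Pecam1, Cdh5, Icam1, Icam2, Eng, Kdr, Tek, Nos3, Vwf, and Thbd, which code for endothelial surface proteins, receptors, and coagulation proteins and for adhesion molecules of leukocytes. They were taken by gene symbol, which gave 15 of the 46643 probes of the table with B6 and NZW. Through the search key that links the deposited tables, 7 of the 46147 rows of the table with BALB/c, DBA1, and 129/svj belonged to 7 of these genes.

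The data came from 15 mice aged 2 months on 18 Illumina Mouse WG-6 arrays, with 3 mice per strain and a repeat array for mouse 1 of BALB/c, DBA1, and 129/svj, which was averaged with its first array. By the labels, DBA1, 129/svj, and NZW are sensitive to anti-GBM nephritis, and B6 and BALB/c resist it. All 5 groups had received the antibody, and no unchallenged mice are among these samples, so strain differences that existed before the challenge cannot be told apart from differences in the response. Strains were compared within a table only. The median deposited signal of an array was 81.1 to 89.8 in the table of B6 and NZW and 118 to 152 in the other, and between 30.5% and 36.4% of the probes of an array were detected, that is, had a detection p of 0.05 or less against the negative control beads. Several markers of the labelled tissue (Slc34a1, Lrp2, and Cubn of the proximal tubule, Nphs1 of the podocyte, Slc12a1, Slc12a3, and Aqp2 of later segments) were detected in all 6 mice of one table and all 9 mice of the other.

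The endothelium of the glomerulus lies against the basement membrane that these antibodies bind. At inflamed vessels in general, leukocytes can roll on activated endothelium and hold on to it through integrins that bind intercellular adhesion molecules. They can then pass between the cells at junctions made by proteins such as Pecam1 and Cdh5. Which of these steps take place in the glomerulus was not examined here. Growth factor receptors such as Kdr and Tek keep the endothelium alive and quiescent, and thrombomodulin and nitric oxide keep its surface free of clots.

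The promoters of 4 of the 10 genes (Eng, Icam1, Kdr, and Tek) were in the RefSeq promoter table used here, which is of build GRCm38.p6, the genome of a B6 mouse. Those of Eng and Icam1 are shown because the Eng probe was the only one of the set past the test and because Icam1 is the member best known for induction in inflammation. The letters GGAA and their reverse complement TTCC, the core that ETS factors of endothelial cells bind, are in capitals. Each sequence is the 250 bases before the annotated start of the gene, 5′ to 3′ on the plus strand, Eng at chr2:32646345-32646594 and Icam1 at chr9:21015690-21015939.
Eng: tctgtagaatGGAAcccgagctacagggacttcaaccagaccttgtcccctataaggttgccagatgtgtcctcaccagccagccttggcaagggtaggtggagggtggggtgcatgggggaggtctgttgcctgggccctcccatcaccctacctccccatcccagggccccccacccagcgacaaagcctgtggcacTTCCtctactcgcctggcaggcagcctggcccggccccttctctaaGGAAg
Icam1: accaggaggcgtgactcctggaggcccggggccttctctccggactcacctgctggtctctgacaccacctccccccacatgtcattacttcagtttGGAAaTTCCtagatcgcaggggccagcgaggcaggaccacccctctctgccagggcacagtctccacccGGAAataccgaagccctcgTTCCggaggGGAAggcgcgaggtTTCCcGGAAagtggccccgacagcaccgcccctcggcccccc
Eng held 3 of these cores, and 54.7% of the 32851 promoters of that length held as many or more. Icam1 held 7, a number that 3.8% of the promoters reached, and 2 of them form the ends of GGAAATTCC, an element of the kind that nuclear factor kappa B binds, at positions -153 to -145 from the start (searched on both strands, 0.3% of the promoters). Kdr held 4 cores and Tek 2, which 33.4% and 76.8% of the promoters reached, and neither Kdr, Tek, nor Eng held that element in this window. These matches describe the letters of the B6 genome only, and the sequences of the other strains were not analysed here.

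Of the 15 member probes, 12 were detected on all 6 arrays of B6 and NZW and covered all 10 genes. The other 3 stayed below the filter on dim probes, which asked for detection in at least 3 mice. They were a second Eng probe (ILMN_2494370), detected on 1 of 6 arrays, and a second Kdr probe (ILMN_2665788) and a Nos3 probe (ILMN_2430542), each detected on 0 of 6. In the table of BALB/c, DBA1, and 129/svj, the rows of Pecam1, Cdh5, Tek, and Vwf were detected on all 12 arrays, and those of Kdr, Nos3, and Eng on 0 of 12. Icam1, Icam2, and Thbd could be read in B6 and NZW only.

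The row of Kdr, the main receptor of vascular endothelial growth factor, had the search key of ILMN_1257223, which was detected in all B6 and NZW mice. The deposited signal of this probe was 179 to 228 on the arrays of B6 and NZW and 93.7 to 138 on the 12 other arrays, whose median signals were higher. Table and strain cannot be told apart in this contrast, and no fold is given. For Eng, a single row (signal 108 to 163) shared its key with both Eng probes, of which ILMN_1229161 gave 497 to 737 and ILMN_2494370 gave 76.1 to 103 in B6 and NZW. Which of these probes that row measures is not known from the key. The Pecam1 row likewise matched both Pecam1 probes.

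**Figure D1:**
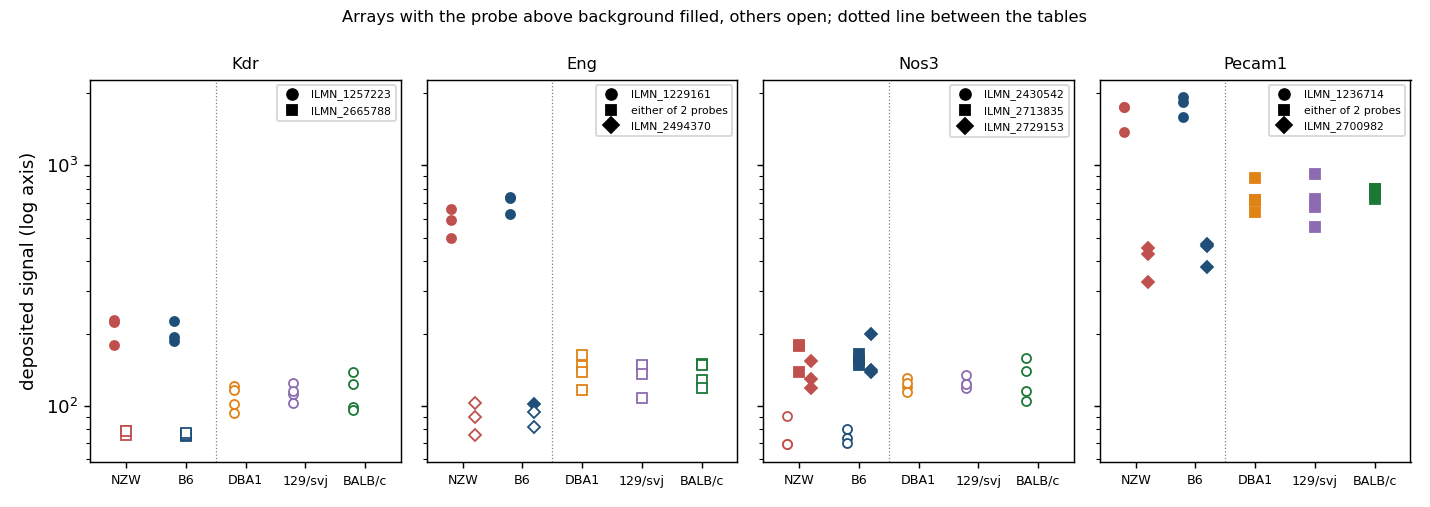
Deposited signal (log axis, before normalisation) of each probe or row of Kdr, Eng, Nos3, and Pecam1 on every array, by strain, with the tables separated by a dotted line. Filled points are arrays on which the probe was detected. Kdr probe ILMN_1257223 is filled on all 6 arrays of NZW and B6 and open on all 12 arrays of the other strains, while the Pecam1 points are filled on every array.

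B6 was compared with NZW to see whether the vessel wall genes of a resistant and a sensitive strain differ after the challenge. The signal of Eng in B6 was 1.28-fold that in NZW, and none of the other 11 probes passed an adjusted p of 0.05 in limma. This is 1 of 12 probes called, where 18.8% of all 16766 tested probes were called (9.24% higher in B6 and 9.60% lower). In B6, 9 of the 12 probes had the higher mean, against 43.8% of all tested probes, and the median difference was 0.21 on the log2 scale, against -0.04 over all tested probes. At an unadjusted p of 0.05, 3 probes passed (Eng, Icam2, and a Pecam1 probe), and 32.3% of all tested probes did. The mice of both strains did not overlap for 4 of the 12 probes, all higher in B6, against 37.3% of all tested probes (16.2% higher in B6). In whole cortex, fewer endothelial cells and less of a transcript per cell cannot be told apart. Probe sequences were not compared with the genomes of these strains, so a sequence difference under a probe was not tested. The values below are log2 signals after normalisation. Where a signal is said to have risen or fallen in a strain, it was higher or lower than in the strain compared, not changed over time.

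**Figure D2:**
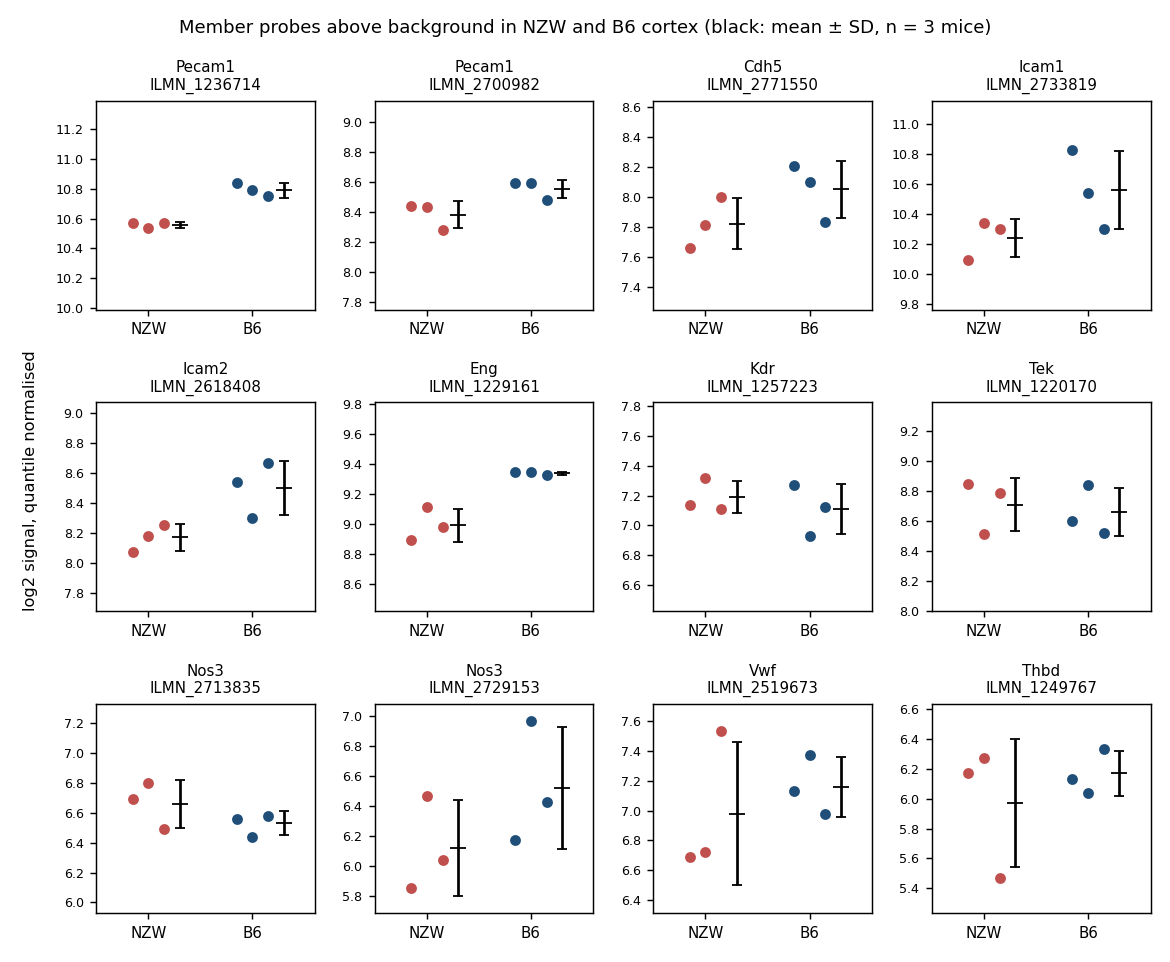
Normalised log2 signal of the 12 detected member probes, 1 panel per probe with its own axis, in NZW and B6. Points are mice and black bars the mean ± SD (n = 3 mice). The mice of both strains do not overlap in the panels of both Pecam1 probes, Icam2, and Eng.

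Pecam1 codes for an adhesion protein of endothelial junctions that leukocytes use to cross the vessel wall, and it was read by 2 probes. Probe ILMN_1236714 had log2 signals of 10.57, 10.54, and 10.57 in NZW mice 1 to 3 and of 10.84, 10.79, and 10.75 in B6. All B6 mice lay above all NZW mice, and the difference was 0.23 (SE 0.10, 95% interval 0.01 to 0.45, adjusted p = 0.13 from limma). With a spread between mice of a strain of 0.04 (SD), it was the steadiest probe of the set. Probe ILMN_2700982 gave 8.44, 8.43, and 8.28 in NZW and 8.59, 8.59, and 8.48 in B6, again with no overlap (difference 0.17, SE 0.10, adjusted p = 0.30 from limma). Both probes had the same sign, and neither passed the test.

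Cdh5 codes for VE-cadherin, the cadherin of endothelial adherens junctions. Its log2 signal was 7.66, 7.81, and 8.0 in NZW and 8.21, 8.10, and 7.83 in B6. B6 mouse 3 lay within the range of NZW, and the difference of 0.23 (SE 0.14) had an adjusted p of 0.31 from limma.

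Icam1 codes for the endothelial ligand of leukocyte integrins that is induced by inflammatory cytokines, and its promoter held the kappa B element shown above. The NZW mice had log2 signals of 10.09, 10.34, and 10.30, and the B6 mice 10.83, 10.54, and 10.30. The strains met at 10.30, and the difference of 0.31 in favour of B6 did not pass the test (SE 0.15, 95% interval -0.03 to 0.66, adjusted p = 0.19 from limma). Icam2, a ligand of the same integrins that resting endothelium carries, gave 8.07, 8.18, and 8.25 in NZW and 8.54, 8.30, and 8.67 in B6. All B6 mice were above all NZW mice, with a difference of 0.34 (SE 0.12, 95% interval 0.05 to 0.62, adjusted p = 0.098 from limma).

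Eng codes for endoglin, a co-receptor for ligands of the transforming growth factor beta family. Probe ILMN_1229161 gave log2 signals of 8.89, 9.11, and 8.98 in NZW and of 9.35, 9.35, and 9.33 in B6. The B6 mice were nearly equal and all above NZW, and the difference was 0.35 (SE 0.10, 95% interval 0.11 to 0.59, adjusted p = 0.049 from limma, with no overlap in 3 against 3 mice). The call lay at the edge of the threshold. It was lost with each single mouse left out except NZW mouse 2 (adjusted p 0.041 to 0.15), and with the arrays scaled to a common 75th percentile the difference was 0.22 (adjusted p = 0.28), which is over 1.5 times smaller.

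Kdr and Tek code for receptor tyrosine kinases that bind vascular endothelial growth factor and the angiopoietins. Kdr probe ILMN_1257223 gave 7.14, 7.32, and 7.11 in NZW and 7.27, 6.93, and 7.12 in B6. Tek gave 8.85, 8.51, and 8.79 in NZW and 8.60, 8.84, and 8.52 in B6. The strains overlapped for both receptors. The difference was -0.08 for Kdr (95% interval -0.37 to 0.20, adjusted p = 0.70) and -0.06 for Tek (95% interval -0.37 to 0.25, adjusted p = 0.81, both from limma).

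Nos3, the endothelial nitric oxide synthase, was read by 2 detected probes that had opposite signs. Probe ILMN_2729153 gave 5.85, 6.47, and 6.04 in NZW and 6.17, 6.97, and 6.43 in B6, a difference of 0.40 (SE 0.23, adjusted p = 0.26 from limma). Probe ILMN_2713835 gave 6.69, 6.80, and 6.49 in NZW and 6.56, 6.44, and 6.58 in B6, a difference of -0.13 (SE 0.12, adjusted p = 0.49 from limma). The strains overlapped in both, so no direction is given for Nos3. The deposited signals of these probes, 119 to 199 and 139 to 179, were near the background, where normalisation compresses differences.

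Vwf codes for von Willebrand factor, which tethers platelets, and Thbd for thrombomodulin, which turns thrombin to anticoagulant use. Vwf gave 6.69, 6.72, and 7.53 in NZW and 7.13, 7.37, and 6.98 in B6. NZW mouse 3 lay above all B6 mice, and the difference was 0.18 (SE 0.23, adjusted p = 0.64 from limma). Thbd gave 6.17, 6.27, and 5.47 in NZW and 6.13, 6.04, and 6.33 in B6. Here NZW mouse 3 was the lowest of all 6 mice (difference 0.20, SE 0.21, adjusted p = 0.56 from limma), and without it the difference was -0.05.

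**Figure D3:**
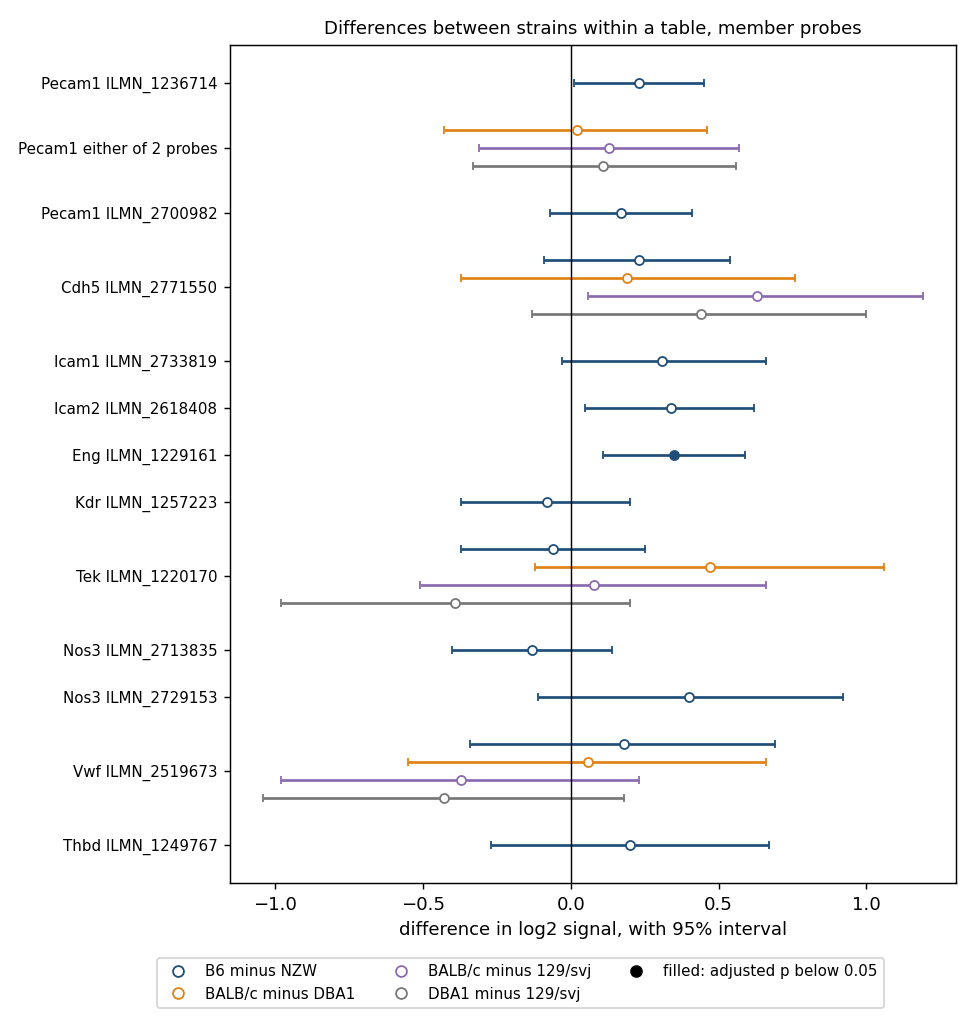
Difference in normalised log2 signal between strains of the same table (x axis) for each detected member probe (y axis), with its 95% interval. Filled points passed an adjusted p of 0.05, and the Eng probe in B6 minus NZW is the only one. The intervals of BALB/c, DBA1, and 129/svj are wider than most of those of B6 and NZW, and only that of Cdh5 in BALB/c minus 129/svj lies clear of 0 among them.

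Among BALB/c, DBA1, and 129/svj, none of the 4 detected rows (Pecam1, Cdh5, Tek, and Vwf) was called in any comparison. Over the 15818 rows tested, 5.99% were called between BALB/c and the mean of the sensitive strains, 5.75% between BALB/c and DBA1, 4.82% between BALB/c and 129/svj, and 4.48% between DBA1 and 129/svj. At an unadjusted p of 0.05, Cdh5 in BALB/c against 129/svj was the 1 value that passed in limma, and the methods' t-test on the same values passed 0. The mice of a strain were spread widely for these genes. The median SD within a strain was 0.36 over the 4 rows and 0.24 over all tested rows, whereas in B6 and NZW it was 0.16 for both the 12 probes and all tested probes.

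**Figure D4:**
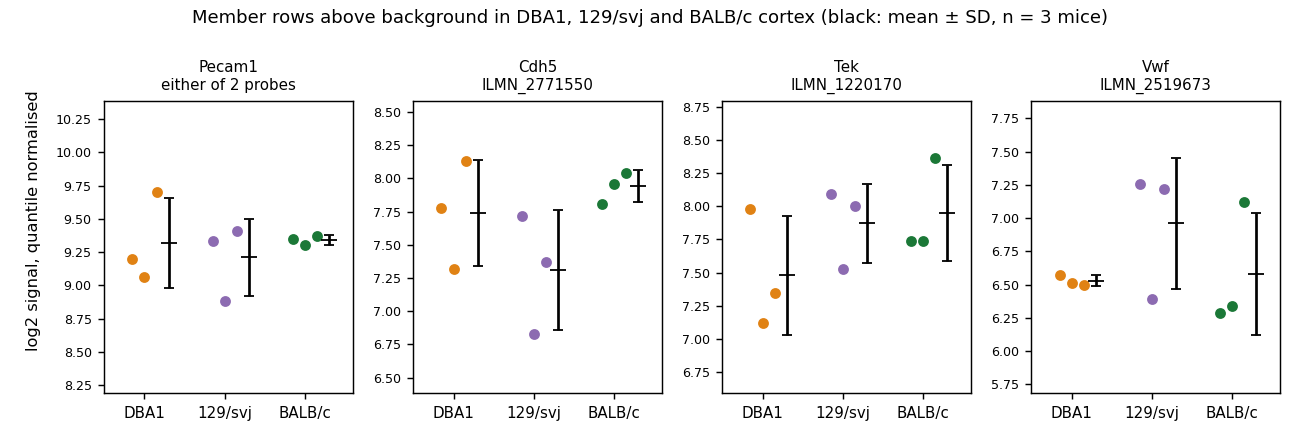
Normalised log2 signal of the 4 detected member rows in DBA1, 129/svj, and BALB/c, 1 panel per row with its own axis. Points are mice, with the repeat array of mouse 1 averaged in, and black bars the mean ± SD (n = 3 mice). For Cdh5, all BALB/c mice lie above all 129/svj mice, and in the other panels BALB/c overlaps both sensitive strains.

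Cdh5 gave log2 signals of 7.81, 7.96, and 8.04 in BALB/c, of 7.78, 7.32, and 8.13 in DBA1, and of 7.72, 6.83, and 7.37 in 129/svj. The BALB/c mice were all above the 129/svj mice, whereas DBA1 spanned them. The difference between BALB/c and 129/svj was 0.63 (SE 0.25, 95% interval 0.06 to 1.19, unadjusted p = 0.032, adjusted p = 0.27 from limma), and between BALB/c and DBA1 it was 0.19 (SE 0.25, adjusted p = 0.76 from limma). Against the mean of both sensitive strains it was 0.41 (95% interval -0.08 to 0.90, adjusted p = 0.35).

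Pecam1 gave 9.35, 9.30, and 9.37 in BALB/c, 9.20, 9.06, and 9.70 in DBA1, and 9.33, 8.88, and 9.41 in 129/svj. The BALB/c mice were close together and inside the range of DBA1 and of 129/svj, and the difference from the mean of these strains was 0.07 (95% interval -0.31 to 0.46, adjusted p = 0.87 from limma). DBA1 mouse 3 was the highest and 129/svj mouse 2 the lowest of the 9 mice for both Pecam1 and Cdh5.

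Tek gave 7.74, 7.74, and 8.36 in BALB/c, 7.98, 7.12, and 7.35 in DBA1, and 8.09, 7.53, and 8.0 in 129/svj. DBA1 had the lowest mean, but its mouse 1 was above 2 of the 3 BALB/c mice, and the difference of 0.47 between BALB/c and DBA1 was not called (SE 0.26, adjusted p = 0.40 from limma). Both arrays of BALB/c mouse 1 differed by 0.38 for Tek, beside an SD of 0.37 between mice of a strain. Vwf gave 6.29, 6.34, and 7.12 in BALB/c, 6.57, 6.51, and 6.50 in DBA1, and 7.26, 6.39, and 7.22 in 129/svj. In each of BALB/c and 129/svj, 1 mouse stood apart from the other two, and the mean difference of BALB/c from both sensitive strains was -0.16 (SE 0.24, adjusted p = 0.79 from limma).

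The order of the strain means was BALB/c, DBA1, and 129/svj for Pecam1 and Cdh5, BALB/c, 129/svj, and DBA1 for Tek, and 129/svj, BALB/c, and DBA1 for Vwf. No neighbours in these orders passed the test. As a description over the 9 mice, which share table and strain, the gene outside the set whose row followed Pecam1 most closely was Wbp4 (Pearson r = 0.97). For Cdh5 it was Zfp800 (r = 0.95), for Vwf Myl9 (r = 0.95), and for Tek Amotl1 (r = 0.91), each the highest of 6857 named rows. Over the 6 mice of B6 and NZW, the r was 0.69 for Vwf and Myl9, 0.28 for Pecam1 and Wbp4, and 0.07 for Tek and Amotl1.

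Resistant and sensitive strains were also compared over both tables, as the mean of BALB/c minus DBA1 and 129/svj and of B6 minus NZW, over probes whose search key was unique in both tables. Of the set, Tek, Vwf, and Cdh5 could be tested in this way, and 0 of 3 were called, where 12.0% of 6896 probes were, with 0 of 3 at an unadjusted p of 0.05 and 23.9% of all probes. Kdr passed the filter through B6 and NZW alone and was not detected in the other strains, so it was not counted. Cdh5 had the largest averaged difference, 0.28 (SE 0.16, 95% interval -0.06 to 0.61, adjusted p = 0.31 from limma). It was 0.09 for Tek (95% interval -0.26 to 0.43) and -0.03 for Vwf (95% interval -0.44 to 0.38). The tables' differences were also set against each other, and none of these 3 genes passed that test (adjusted p 0.54 to 0.76 from limma, with 10.3% of all probes called and 0 of 3 at an unadjusted p of 0.05).

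Other genes of the vessel wall were read from lists by the same fits. Among other endothelial genes, 11 of 38 detected probes rose and 2 fell in B6 against NZW, which is 34.2% beside the 18.8% of all probes, with a median difference of 0.16. The count of 13 fell to 5 without B6 mouse 1, to 6 without B6 mouse 2 or NZW mouse 3, and to between 9 and 11 without each other mouse. Ehd3, a protein of endocytic traffic found in glomerular endothelium, gave 6.71, 6.77, and 6.72 in NZW and 8.52, 8.51, and 8.72 in B6, the widest gap of the list (difference 1.85, SE 0.11, adjusted p = 6e-06). Eltd1, an adhesion receptor of endothelium, was 1.52 higher in B6 (SE 0.12, adjusted p = 4.5e-05), and Cd93, a surface lectin of endothelial and myeloid cells, was 1.09 higher (SE 0.11, adjusted p = 0.00025, all from limma). The 2 that fell were probes of Agtrl1 (-0.5, adjusted p = 0.02) and Ednrb (-0.36, adjusted p = 0.045, both from limma). Among the 25 probes not called, those of Emcn gave -0.42 and -0.11, Tie1 -0.13, Plvap -0.02, Flt1 0.06, and Cldn5 0.33. In the comparisons of BALB/c, 1 of 14 detected probes was called (7.14%, beside 5.75% of all rows between BALB/c and DBA1). It was Cd93, which was 0.93 higher in BALB/c than in DBA1 (adjusted p = 0.033 from limma), while the value against 129/svj was -0.13 (95% interval -0.61 to 0.35). The sensitive strains themselves differed, with Cd93 lower in DBA1 than in 129/svj (difference -1.06, SE 0.21, adjusted p = 0.019 from limma). The call between BALB/c and DBA1 was lost without any 1 of the BALB/c mice or DBA1 mouse 1 or 2 (adjusted p 0.098 to 0.11), and that between DBA1 and 129/svj without DBA1 mouse 1 or 2 (adjusted p 0.082 and 0.077). These Cd93 values are of probe ILMN_1226329. A second Cd93 probe, ILMN_1226829, was 0.6 higher in B6 than in NZW (adjusted p = 0.0071 from limma). Its means were 8.32 in BALB/c, 8.06 in DBA1, and 8.34 in 129/svj, and it was not called among these strains.

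**Figure D5:**
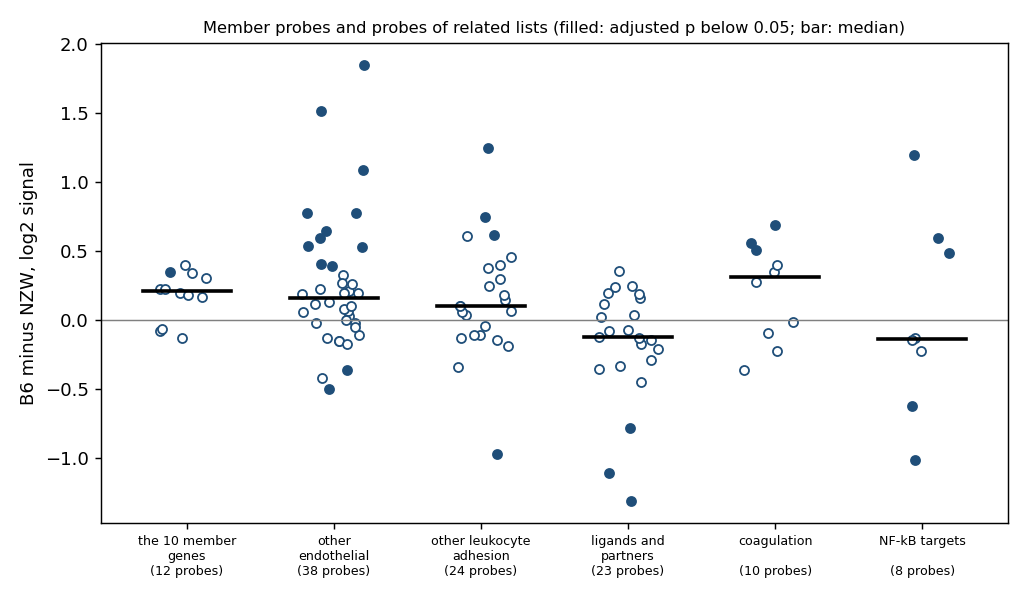
Difference in normalised log2 signal between B6 and NZW (y axis) for each detected probe of the member genes and of lists of related genes (x axis). Filled points passed an adjusted p of 0.05, and bars are medians. The member probes lie between -0.13 and 0.40, while probes of the other lists reach -1.31 and 1.85.

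Of the other leukocyte adhesion genes, 3 of 24 detected probes rose and 1 fell in B6 against NZW (16.7% called, beside 18.8% of all tested probes). F11r, a junctional adhesion molecule, was 1.25 higher in B6 (SE 0.17, adjusted p = 0.0013 from limma) and 1.08 higher in BALB/c than in DBA1 (SE 0.22, adjusted p = 0.016 from limma). Against 129/svj its value in BALB/c was 0.24 (95% interval -0.24 to 0.72), and against the mean of both it was 0.66 (adjusted p = 0.077 from limma). The call against DBA1 was lost without BALB/c mouse 1 or 3 or DBA1 mouse 2 (adjusted p 0.062 to 0.069). F11r was detected in only 1 of the 3 DBA1 mice (mean 5.76), near the background. Under other processing, its difference between BALB/c and DBA1 ranged from 0.47 to 1.19. Cd99l2, which leukocytes use in transmigration, and Itgav, the alpha V integrin subunit, were each read by 2 detected probes that disagreed, so no direction is given for either gene. Cd99l2 probe ILMN_1230457 was 0.75 higher in B6 (SE 0.19, adjusted p = 0.026), a call kept only without B6 mouse 3 or NZW mouse 3, and ILMN_2663577 gave -0.11 (adjusted p = 0.63, both from limma). Itgav probe ILMN_1238119 fell by 0.97 (SE 0.14, adjusted p = 0.0017), and ILMN_1251946 gave -0.04 (adjusted p = 0.90, both from limma).

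Of the ligands and signalling partners of the 10 genes, 0 of 23 detected probes rose and 3 fell in B6 (13% called, beside 18.8% of all tested probes). These were both probes of Nosip, which binds the nitric oxide synthase that Nos3 codes for and moves it off the membrane, and that of Vegfc, a growth factor of the Kdr and Flt4 receptors. Nosip probe ILMN_2621588 gave 9.55, 9.53, and 9.44 in NZW and 8.15, 8.21, and 8.24 in B6 (fell by 1.31, SE 0.10, adjusted p = 3.5e-05 from limma). Vegfc fell by 0.78 in B6 against NZW (SE 0.12, adjusted p = 0.0023 from limma) and by 0.73 in BALB/c against 129/svj (SE 0.17, adjusted p = 0.038 from limma). The latter call was kept only without BALB/c mouse 3, 129/svj mouse 2, or DBA1 mouse 3 (adjusted p up to 0.16 without any other mouse), and against DBA1 the value was -0.32 (adjusted p = 0.37 from limma). Averaged over both tables, the difference was -0.66 for Vegfc (SE 0.11, adjusted p = 0.00061) and 0.89 for F11r (SE 0.15, adjusted p = 0.00085, both from limma). For Cd93 it was 0.72 by probe ILMN_1226329 (SE 0.12, adjusted p = 0.00078) and 0.29 by probe ILMN_1226829 (SE 0.13, adjusted p = 0.19, both from limma). With strain as a random block, Vegfc kept its call (adjusted p = 0.038), and those of F11r (adjusted p = 0.092) and Cd93 (adjusted p = 0.20, all from limma) were lost. Averaged over both tables, Sox18 (0.71, adjusted p = 0.031), Proc (-0.45, adjusted p = 0.01), and Csf1 (-0.69, adjusted p = 0.046, all from limma) were also called, where 12% of all probes were. With 1 mouse left out, these calls were kept in 7, 15, and 4 of 15 runs. Csf1 was detected in 0 of 3 BALB/c mice.

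Among coagulation and thrombolysis genes, 3 of 10 detected probes rose and 0 fell in B6 (30% called, beside 18.8% of all tested probes). They were those of the thrombin receptor F2r (difference 0.69, SE 0.15, adjusted p = 0.014), F2rl1 (0.56, SE 0.13, adjusted p = 0.019), and Anxa2 (0.51, SE 0.15, adjusted p = 0.048, all from limma), which binds tissue plasminogen activator. Only 1 probe was called without B6 mouse 1, B6 mouse 2, NZW mouse 2, or NZW mouse 3. Among targets of nuclear factor kappa B at sites of inflammation, 3 of 8 rose and 2 fell (62.5% called). This count of called probes fell to between 2 and 3 without any 1 of the B6 mice or NZW mouse 2. The neutrophil chemokine Cxcl1 was 1.20 higher in B6 (SE 0.23, adjusted p = 0.008 from limma), whereas Csf1, a macrophage growth factor, fell by 1.01 and the inhibitor Nfkbia by 0.62 (adjusted p = 0.017 and 0.038 from limma). The call of Csf1 was lost without B6 mouse 3 or NZW mouse 3, and that of Nfkbia was kept only without NZW mouse 3. Both probes were dim in B6 (means 5.81 for Csf1 and 5.33 for Nfkbia, the latter detected in 2 of 3 mice). Under other processing, the differences ranged from -1.01 to -0.57 for Csf1 and from -0.65 to -0.31 for Nfkbia. In BALB/c against the mean of the sensitive strains, 0 of 5 rows of this list were called (5.99% of all rows were). Of these rows, 0 were higher in BALB/c, and the median difference was -0.28, beside 0.01 over all rows. Nfkb2 passed the filter through 129/svj alone (detected in 0 of 3 BALB/c and 0 of 3 DBA1 mice), so its calls against 129/svj were not counted. Proc, protein C of the pathway that thrombomodulin serves, fell by 0.67 in BALB/c against the mean of the sensitive strains (SE 0.15, adjusted p = 0.029 from limma). It was 1 of 5 coagulation probes detected there (20% called, beside 5.99% of all rows). That call was kept only without DBA1 mouse 3, 129/svj mouse 2, or 129/svj mouse 3 (adjusted p 0.059 to 0.13 without any other mouse).

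Summed signals of several lists of cell type genes also differed between B6 and NZW in whole cortex, where 18.8% of all tested probes were called. The summed normalised signal of the 38 other endothelial probes was 42500 to 44700 in B6 and 38500 to 40200 in NZW, without overlap. Of these probes, 26 were higher in B6, and 25 were not called in either direction. The sum of 11 mesangial, pericyte, and smooth muscle probes was 11000 to 12700 in B6 and 8540 to 9430 in NZW (3 probes rose and 0 fell, 27.3% called). These 3 were of Rgs5 (2.07, detected in 0 of 3 NZW mice), Acta2 (0.95), and Ren1 (0.71). A second Rgs5 probe gave -0.56 and was not called. In all, 9 of the 11 probes were higher in B6, and Pdgfrb, Cspg4, and Gata3 gave 0, 0.04, and -0.01. For 13 proximal tubule probes the sum was 86300 to 99500 in B6 and 106000 to 117000 in NZW (0 rose and 4 fell, 30.8% called). The 14 macrophage probes gave 4500 to 8480 in B6 and 3710 to 4520 in NZW, sums that overlap, with 1 called higher and 0 lower (7.14% called). Lymphocyte and neutrophil lists had 0 called of 7 and of 9 probes in limma. Without B6 mouse 1, 4 of the neutrophil probes were called higher in B6 and 2 of the macrophage probes. Without B6 mouse 2, 1 macrophage probe was called higher and 1 lower, and without NZW mouse 3 or any 1 of the B6 mice, 2 proximal tubule probes were called lower. The part of other cell types in the Eng difference was not tested.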

How the data were processed

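RNA from the kidney cortex of 15 mice was hybridised to Illumina Mouse WG-6 v1 arrays, biotin labelled. The authors deposited, in 2 tables, signal intensities from BeadStudio that were not normalised, with a detection p-value for each probe and array. No sequencing depth applies, and the number of arrays limits the precision. Intensities were corrected with normexp from the detection p-values (offset 16), quantile normalised within a table, and taken to log2, where low differences are compressed. Repeat arrays were averaged. Probes detected (p up to 0.05) in 3 or more mice were fitted with lmFit and eBayes (limma 3.58.1, R 4.3.3), 1 coefficient per strain, with Benjamini-Hochberg adjustment over all probes tested and a threshold of 0.05. For the comparison over both tables, 19886 probe pairs with a unique search key were normalised together. All member probes were named. Of the other vessel wall lists, up to 3 called probes with the largest difference per comparison were named, with some further probes of the same lists. Members and lists were chosen with earlier results of these data known. The fits were tested on simulated data with independent normal noise and shifts of 1 on the log2 scale. Of these shifts, 69.5% were recovered in B6 minus NZW, and 50.5% to 94.5% over all comparisons. Smaller shifts, of the size of the member differences, were not simulated. Alternatives covered background, normalisation, filter, replicate number, test, repeat arrays, and each mouse left out. No pairing of mice by replicate number was seen in the values. RefSeq promoters (GRCm38.p6) were searched with Python 3.11.15. Lists of tubule and blood cell genes were read as lists, and probes of the mesangial list were named only to show what its counts rest on. A further marker gene and its list are not reported here.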

Additional observations from a re-analysis of the deposited data

How the results depend on the processing

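Of the member probes, only Eng between B6 and NZW was past the threshold. The count of member probes called in that comparison, 1 in the reported fit, was 0 with scaling to the 75th percentile, which moved the median of all tested probes from -0.04 to -0.13, and 0 with joint normalization of both tables, where no Eng probe had a unique key. It was 3 by the methods' t-test at an unadjusted p of 0.05 (Eng, Icam2, and Pecam1 ILMN_1236714) and 2 after Benjamini-Hochberg adjustment (Eng and Pecam1), and with each mouse left out it was 0 to 1. With the replicate number as a block the count was 0, and the Eng difference of 0.35 had an adjusted p of 0.10 in limma. Mice of different strains with the same number deviated together with correlations of -0.07 to 0.01 in B6 and NZW and of -0.26 to 0.39 in the other table. Those with different numbers gave -0.02 to 0.08 and -0.42 to 0.40, so no pairing by number was seen in these values. Whether mice with the same number shared a batch was not tested. The block changed no other call of a member. Eng stayed past the threshold with an offset of 50, without background correction, and with both other filters (adjusted p 0.022 to 0.043). The 6 counts of 0 in the other comparisons stayed at 0 under every alternative run.

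Of the member differences that were not called, Tek between BALB/c and 129/svj went from 0.08 to -0.01 with the first array of mouse 1 alone. With each mouse left out in turn, several changed sign. In B6 minus NZW, Kdr ranged from -0.17 to 0.01, Tek from -0.16 to 0.01, and Thbd from -0.05 to 0.35. In BALB/c minus DBA1, Vwf ranged from -0.21 to 0.20, Cdh5 from -0.02 to 0.39, and Pecam1 from -0.11 to 0.21. In BALB/c minus 129/svj, Tek ranged from -0.13 to 0.19 and Pecam1 from -0.03 to 0.23. Pecam1 ranged from -0.01 to 0.17 in BALB/c minus the mean of both sensitive strains and from -0.08 to 0.24 in DBA1 minus 129/svj. Averaged over both tables, Kdr, not detected in one of them, ranged from -0.08 to 0, Tek from -0.02 to 0.16, and Vwf from -0.17 to 0.10. The cause was not tested. The averaged call of Vegfc was kept in every alternative run (adjusted p up to 0.038 from limma). Signals near the background limit Nos3, Thbd, and the undetected rows.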

Other observations

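Other cell lists of the cortex were read as values only. Between B6 and NZW, 2 of 14 detected probes of other nephron segments rose and 1 fell (21.4% called). In the red blood cell list, 3 of 14 probes rose and 1 fell (28.6% called), and the 1 detected platelet probe was not called. Of all tested probes, 18.8% were called. Against the mean of both sensitive strains of its table, BALB/c had 1 of 5 mesangial, pericyte, and smooth muscle probes higher and 3 lower, 2 of 7 proximal tubule probes higher and 1 lower, and 1 of 6 macrophage probes lower. The shares called were 80%, 42.9%, and 16.7%, beside 5.99% of all rows. In the mesangial list, 2 of the 3 lower probes were of the same gene, Ren1 (-1 and -0.82). The higher one was Rgs5 (1.56), with means of 7.86 in BALB/c and 7.92 in DBA1. It was detected in 0 of 3 mice of 129/svj (mean 4.69). None of the 2 lymphocyte, 1 neutrophil, 10 red blood cell, and 8 other nephron probes was called there in limma, and no platelet probe was detected.

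The summed normalised signal of the 14 other endothelial probes detected in that table was 7910 to 8130 in BALB/c, 6490 to 8450 in DBA1, and 6600 to 8670 in 129/svj. The BALB/c mice lay inside the range of both sensitive strains, as their Pecam1 values did.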
